A study of Mus musculus with 8 samples.

Results

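Oligodendrocyte precursor cells (OPC) were examined in a single nucleus RNA sequencing (snRNAseq) experiment on the P14 visual cortex (VC, postnatal day 14) of mice, in nuclei sorted for lacking the neuronal protein NeuN. OPC were taken as the nuclei with the class name OPC in the table of nuclei. They numbered 8363 of 44021, against 353 mitotic OPC (M-OPC) and 2765 newly formed oligodendrocytes (NFOL). Each of 8 libraries pooled the VC of 2 C57BL/6J mice of one sex. The VGlut2 model compared floxed mice without cre (VGlut2 f/f, here VGlut2 WT) with floxed mice that also carried a cre driven by RORα (VGlut2 f/f;ROR acre, here VGlut2 cKO), in which the vesicular glutamate transporter VGlut2 is deleted in thalamic neurons and not by design in OPC. Both VGlut2 groups thus carried the floxed alleles. The Ip3r2 model compared Ip3r2 wt with Ip3r2 ko mice (Ip3r2 WT and Ip3r2 KO), a knockout of the type 2 IP3 receptor that is not confined to one cell type. Each group had 1 male and 1 female library. The values analysed were the class, the embedding coordinates, the unique molecular identifiers (UMIs), the detected genes and the mitochondrial share of each nucleus. Expression per gene was not analysed here, so the class name could not be checked against Pdgfra and Cspg4, a receptor and a proteoglycan used as markers of OPC, nor the deletions against Slc17a6 and Itpr2.

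OPC are the glial precursors of the brain. They divide through postnatal life, and part of their progeny leaves the cell cycle and becomes NFOL, which go on to myelin-forming (MFOL) and mature oligodendrocytes (MOL). OPC also receive synapses from neurons, and neuronal activity is known to act on their division and differentiation. The comparisons below therefore follow the lineage from dividing OPC, through OPC, to NFOL.

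The number of nuclei per library was 4767 to 5920, and the number of UMIs 8824112 to 12948023. The model, genotype and sex written beside the nuclei matched the labels in 8 of 8 libraries. Among the OPC, 82 nuclei (0.98%) had a barcode sequence that also occurred in another library, close to the 1.08% over all nuclei, and 9 such sequences were OPC in more than 1 library. The library, not the nucleus, was the replicate in every test. The study handled 1 WT and 1 mutant sample per day, and the day is not in the labels, so a difference between the male and the female libraries of a model cannot be told apart from one between days if the same-sex pair shared a day.

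OPC made up a large part of the nuclei in every library, and their share was not detectably different between genotypes in either model. They were 20.2% of nuclei in the male and 17.6% in the female VGlut2 WT library, and 16.5% in the male and 21.6% in the female VGlut2 cKO library. In the Ip3r2 model they were 18.8% and 19.9% in the male and female WT libraries, and 18.9% and 18.5% in the male and female KO libraries. The 2 VGlut2 cKO libraries held the lowest and the highest share of all 8, so the groups of this model overlapped fully, and the Ip3r2 groups lay between them. Group means were 18.9% ± 1.78 for VGlut2 WT, 19.1% ± 3.60 for VGlut2 cKO, 19.3% ± 0.831 for Ip3r2 WT and 18.7% ± 0.301 for Ip3r2 KO (SD, n = 2 libraries each). In limma over all 17 classes, the log2 odds of being OPC differed by 0.0072 (SE 0.28, 95% interval -0.60 to 0.62, adjusted p = 0.980) between VGlut2 cKO and WT, and by -0.061 (SE 0.28, 95% interval -0.67 to 0.55, adjusted p = 0.994) between Ip3r2 KO and WT. The difference between these 2 effects was 0.068 (adjusted p = 0.959). No class passed the threshold of 0.05 in either contrast (0 of 17, 0%), with 0 classes at an unadjusted p under 0.05 for VGlut2 and 1 for Ip3r2, and edgeR called 0 with none at an unadjusted p under 0.05. The fit drew the SE of OPC toward the spread over all classes, so these intervals do not reflect the spread of OPC alone. They do not exclude a change of several percentage points.

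Among the VGlut2 libraries the OPC share moved in opposite directions in the 2 sexes. The cKO library was 3.98 points above the WT library in females, and in males the cKO share fell by 3.63 points from the WT share. In both of these pairs the Wilson 95% intervals of the 2 libraries lay apart, and in both Ip3r2 pairs they overlapped. The SD of the OPC share over the 4 VGlut2 libraries (2.32 points) was 4.47 times what counting alone gives, compared with 1.18 times (0.635 points) over the 4 Ip3r2 libraries. Intervals of single libraries cover counting error only, and a pair of libraries is no replicated test of sex.

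**Figure D1:**
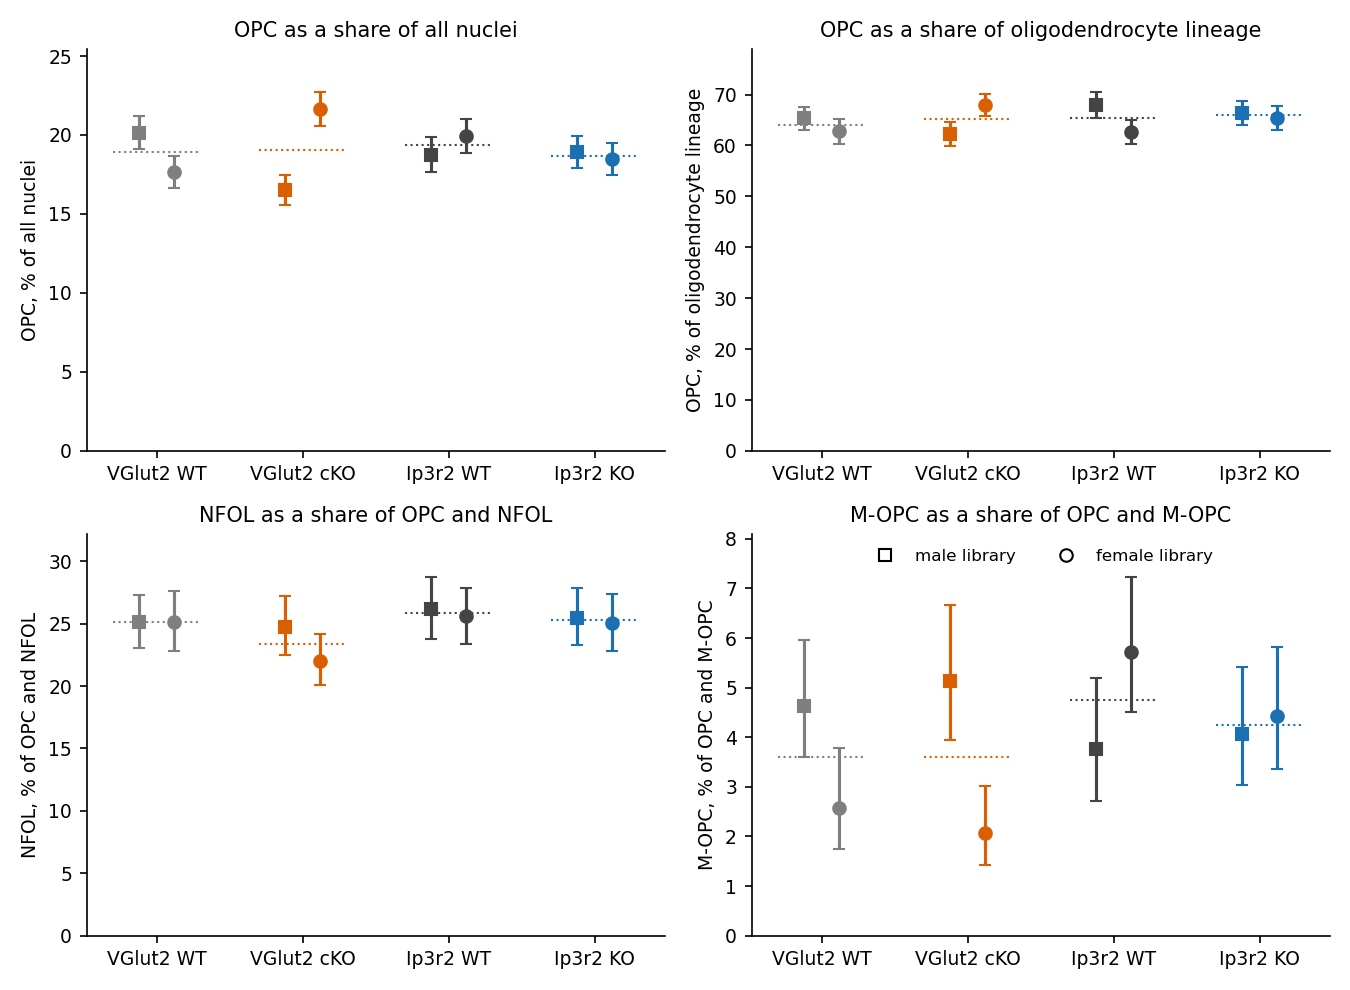
Shares in percent by library for OPC of all nuclei, OPC of the oligodendrocyte lineage, NFOL of OPC and NFOL, and M-OPC of OPC and M-OPC. Squares are male and circles female libraries, bars are Wilson 95% intervals, and dotted lines are group means of 2 libraries. The OPC share spans 16.5% to 21.6%, with both ends in VGlut2 cKO, while the NFOL share stays between 22.0% and 26.2%.

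The plot of shares by library also sets OPC against the rest of their lineage. OPC were 65.1% ± 2.32 of the oligodendrocyte lineage (OPC, M-OPC, NFOL, MFOL and MOL, 12847 nuclei) over the 8 libraries, from 62.3% in the male VGlut2 cKO to 68.0% in the female VGlut2 cKO library. The log2 odds of being OPC within the lineage differed by 0.074 (SE 0.21, 95% interval -0.45 to 0.60, adjusted p = 0.957) between VGlut2 cKO and WT and by 0.036 (SE 0.21, 95% interval -0.49 to 0.56, adjusted p = 0.934) between Ip3r2 KO and WT in limma over 9 within-lineage ratios. None of the 9 ratios passed in either model (0%), and none had an unadjusted p under 0.05. The 9 ratios were not all of this lineage, as some were within astrocytes, microglia, vascular cells or neuron-like nuclei. The fit drew each SE toward the spread over all 9. Myelin-forming and mature oligodendrocytes together were a smaller and less even part of the lineage, 5.25% to 14.5%, with an SD 3.94 times counting error.

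Relative to counting error, the ratio of NFOL to OPC was the most even of the 4 lineage ratios given here. NFOL were 25.1% of OPC and NFOL in both the male and the female VGlut2 WT library, 24.8% and 22.0% in the male and female VGlut2 cKO libraries, 26.2% and 25.6% in the Ip3r2 WT libraries, and 25.5% and 25.1% in the Ip3r2 KO libraries. The SD over 8 libraries was 1.24 points, which is 1.07 times counting error. In 4 of 4 same-sex pairs the mutant library was below its WT library, by -0.327 and -3.09 points in VGlut2 males and females and by -0.710 and -0.519 points in Ip3r2 males and females, but the Wilson intervals overlapped in every pair. The log2 odds differed by -0.14 (SE 0.17, 95% interval -0.54 to 0.27, adjusted p = 0.957) in the VGlut2 model and by -0.047 (SE 0.17, 95% interval -0.45 to 0.36, adjusted p = 0.934) in the Ip3r2 model (limma), so no difference between genotypes was shown.

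Dividing OPC were rare and their share varied more than counting error. M-OPC made up 4.63% of OPC and M-OPC in the male and 2.58% in the female VGlut2 WT library, and 5.14% and 2.07% in the male and female VGlut2 cKO libraries. In the Ip3r2 model the male and female libraries held 3.77% and 5.72% in WT and 4.06% and 4.43% in KO. These shares rest on 25 to 65 M-OPC nuclei per library, and their SD of 1.23 points over 8 libraries was 2.05 times counting error. Between genotypes the log2 odds differed by -0.082 (SE 0.51, 95% interval -1.33 to 1.17, adjusted p = 0.957) in the VGlut2 and by -0.14 (SE 0.51, 95% interval -1.39 to 1.11, adjusted p = 0.934) in the Ip3r2 model (limma), intervals that hold a log2 difference of 1 in either direction.

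The M-OPC share was also compared by the sex of the library, which cannot be told apart from the day of processing if the same-sex pair shared a day. Both female VGlut2 libraries were below both male ones, and in the Ip3r2 model each female library was above the male library of its genotype. The log2 odds of females minus males were -0.86 in VGlut2 WT, -1.34 in VGlut2 cKO, 0.62 in Ip3r2 WT and 0.13 in Ip3r2 KO. A limma fit with a sex effect in each model, chosen after these values were seen, gave -1.10 (SE 0.27, adjusted p = 0.0357) in VGlut2, 0.38 (SE 0.27, adjusted p = 0.601) in Ip3r2 and a difference between the models of -1.48 (SE 0.38, adjusted p = 0.0471). The error of this fit came from how far WT and mutant of a model agreed in their sex difference, shared over the ratios. It does not measure the spread between days or between further same-sex pairs. The M-OPC ratio was the only one of 9 ratios past the threshold for the difference between models (11.1%), likewise 1 of 9 (11.1%) in VGlut2 and 0 of 9 in Ip3r2. The difference no longer passed when any 1 of the 8 libraries was left out, with values from -1.72 to -1.23 and adjusted p from 0.215 to 0.422. Averaged over the groups, females minus males was -0.36 (SE 0.36, adjusted p = 0.740) for M-OPC, ranging from -0.69 to -0.036 with 1 library left out, and the 1 ratio past the threshold (11.1%) was that of mitotic astrocytes among astrocytes, at -0.65 (adjusted p = 0.0417) and lower in females in 4 of 4 groups.

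OPC nuclei of the VGlut2 libraries carried fewer UMIs than those of the Ip3r2 libraries, whatever the genotype. The median OPC had 1783 and 1866 UMIs in the male and female VGlut2 WT libraries and 1690 and 2115.5 in the male and female VGlut2 cKO libraries. In the Ip3r2 model the medians were 2458.5 and 2455 UMIs in the WT and 2543 and 2367 in the KO libraries, again male first. The highest VGlut2 library was below the lowest Ip3r2 library, so the models did not overlap. On the log2 scale the Ip3r2 libraries were 0.40 higher (SE 0.14, 95% interval 0.13 to 0.68, adjusted p = 0.00855 in limma over 15 classes), and 14 of 15 classes (93.3%) passed in the same direction, so this was no property of OPC alone. With the male Ip3r2 KO library left out, the adjusted p was 0.0528. Relative to the median of all other nuclei of its library, the median OPC held 1.14 to 1.44 times as many UMIs, and this relative depth differed between the models by -0.055 on the log2 scale (adjusted p = 0.801, 0 of 15 classes past the threshold, 3 at an unadjusted p under 0.05). The models also differ in breeding and in days of processing, which cannot be told apart from the model. The fit took the 8 libraries as independent, although the study handled 1 WT and 1 mutant sample per day. Where libraries of the same day share depth, the interval and the adjusted p overstate the evidence.

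**Figure D2:**
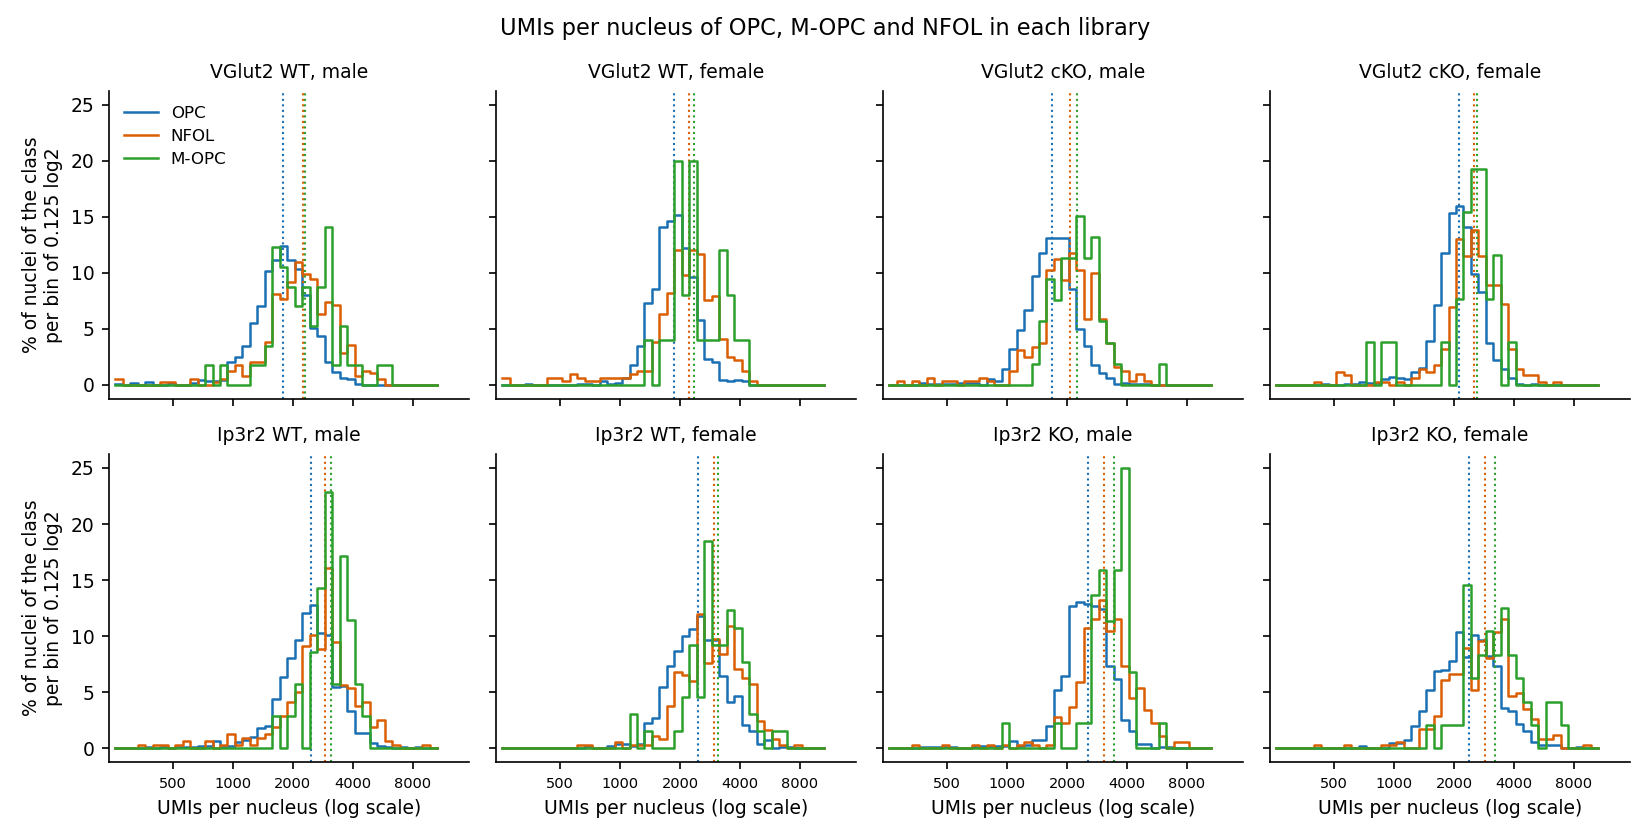
UMIs per nucleus on a log axis against the percent of the nuclei of a class in each bin, for OPC, NFOL and M-OPC, with 1 panel per library and dotted lines at the class medians. In all 8 panels the OPC median lies left of the NFOL and M-OPC medians, and the VGlut2 panels lie left of the Ip3r2 panels.

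The distributions of UMIs by library show OPC as a single peak in each library. Single OPC ranged from 258 to 8925 UMIs and from 203 to 2852 detected genes, and the quartiles ran from 1419 to 1995 UMIs in the male VGlut2 cKO and from 2163.5 to 3039.5 in the male Ip3r2 KO library. Differences between libraries made up 19.8% of the variance of log2 UMIs among OPC, compared with 20.5% among M-OPC and 13.2% among NFOL. Between 0.483% and 3.58% of OPC had under 1000 UMIs, and 2 to 25 OPC per library had over 2 times the library's OPC median. The SD of log2 UMIs over OPC, 0.436 ± 0.0514 (SD, n = 8 libraries), ranked 14 of 15 classes from the highest, with microglia alone below.

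No difference in the size of the OPC profile between genotypes exceeded the spread of libraries in either model. Median OPC UMIs differed by 0.052 on the log2 scale (SE 0.20, 95% interval -0.34 to 0.44, adjusted p = 0.960) between VGlut2 cKO and WT and by -0.0020 (SE 0.20, 95% interval -0.39 to 0.39, adjusted p = 1.0) between Ip3r2 KO and WT. The median OPC had 1017 and 1084 detected genes in VGlut2 WT, 978.5 and 1206 in VGlut2 cKO, 1320 and 1306 in Ip3r2 WT and 1354 and 1254 in Ip3r2 KO (male, female). Genes differed by 0.049 (SE 0.16, adjusted p = 0.923) and by -0.011 (SE 0.16, adjusted p = 0.996) on the log2 scale. Relative depth differed by 0.057 (SE 0.12, adjusted p = 0.944) and by -0.014 (SE 0.12, adjusted p = 0.983). In each of these measures 0 of 15 classes passed in limma (0%), and 0 had an unadjusted p under 0.05.

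The measures that depend less on depth were tighter. The genes an OPC shows at 2000 UMIs, read from a line of log2 genes on log2 UMIs through OPC with 1000 to 4000 UMIs, lay between 1099 and 1154 in the 8 libraries. They differed by 0.010 (SE 0.029, 95% interval -0.052 to 0.073, adjusted p = 0.995) between VGlut2 cKO and WT and by -0.0075 (SE 0.029, 95% interval -0.070 to 0.055, adjusted p = 0.995) between Ip3r2 KO and WT on the log2 scale, with 0 of 14 classes past the threshold. Mitochondrial UMIs, a sign of cytoplasmic RNA carried with the nuclei, were 3.15% to 3.34% of OPC UMIs. They differed by 0.0028 (SE 0.044, 95% interval -0.085 to 0.091, adjusted p = 0.973) and by -0.0062 (SE 0.044, 95% interval -0.094 to 0.082, adjusted p = 0.954) on the log2 scale in the VGlut2 and Ip3r2 models, with 0 of 15 classes past the threshold. Both measures had 0 classes at an unadjusted p under 0.05 in limma.

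**Figure D3:**
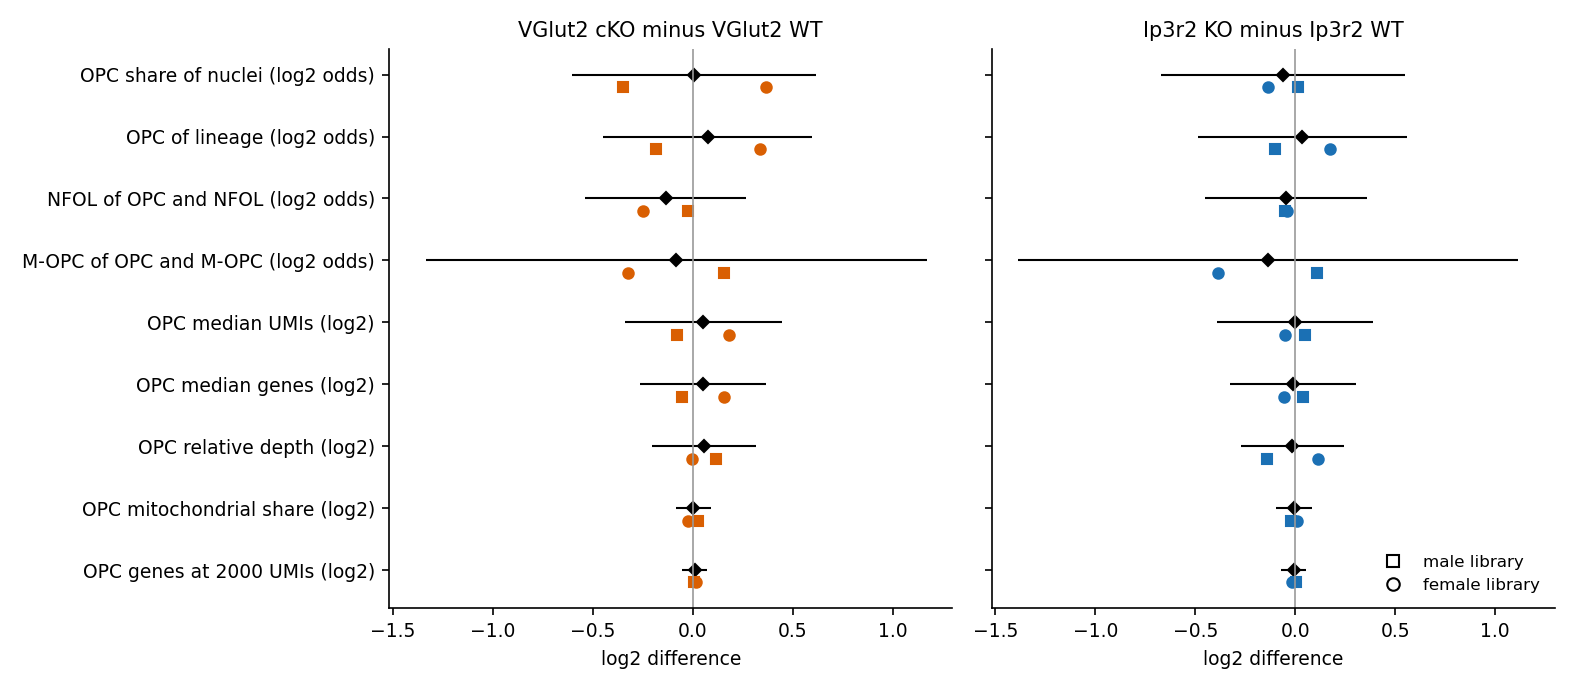
Log2 differences of mutant minus WT for 9 measures of OPC, with VGlut2 on the left and Ip3r2 on the right. Black diamonds and lines are limma estimates with 95% intervals, coloured squares and circles are the differences within the male and the female pair of libraries. Every interval spans 0, from the M-OPC ratio as the widest to genes at 2000 UMIs as the narrowest.

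The plot of genotype differences shows how often the male and the female pair pointed apart, which was so in both models. Their signs were opposite in 7 of 9 measures in VGlut2, all but the NFOL ratio and genes at 2000 UMIs, and in 8 of 9 measures in Ip3r2, all but the NFOL ratio. In limma with group and sex, females minus males was 0.077 (SE 0.24, adjusted p = 0.851) in log2 odds for the OPC share, 0.071 (SE 0.12, adjusted p = 0.771) for log2 UMIs, 0.067 (SE 0.10, adjusted p = 0.743) for log2 genes and 0.0020 (SE 0.028, adjusted p = 0.942) for the log2 mitochondrial share of OPC. OPC passed in none of these fits, in which 0 of 17, 1 of 15 (6.67%), 1 of 15 (6.67%) and 0 of 15 classes did, the class past the threshold being NeuronLike-Gad1 for both UMIs and genes. The unadjusted p was under 0.05 for 2, 1, 1 and 2 classes. Relative OPC depth was 1.31 to 1.44 in the male and 1.14 to 1.28 in the female libraries, which did not overlap, but its sex difference of -0.16 on the log2 scale (SE 0.086, adjusted p = 0.284) did not pass either, and 1 of 15 classes (6.67%) did. In the limma fit with a sex effect in each model, chosen after the values were seen, OPC genes passed in VGlut2. They were 0.20 higher in females on the log2 scale (SE 0.085, adjusted p = 0.0464), and 9 of 15 classes (60%) passed. In Ip3r2 the value was -0.063 (adjusted p = 0.701). Here too the error does not measure the spread between days or between further same-sex pairs. The other OPC measures named in this paragraph passed in neither model in that fit.

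Compared with the cells on either side of it within the same library, the OPC profile was smaller. The OPC median of UMIs was below the M-OPC median in 8 of 8 libraries, 0.773 times as high on average (log2 difference -0.37 ± 0.052, SD, n = 8 libraries, adjusted p = 0.0112 by exact sign flips), M-OPC medians being 2239 to 3462 UMIs. It was also below the NFOL median in 8 of 8 libraries, at 0.826 times (log2 difference -0.28 ± 0.029, adjusted p = 0.0112), NFOL medians being 2076 to 3089 UMIs. Detected genes followed, at 0.790 times the M-OPC and 0.880 times the NFOL median, each lower in 8 of 8 libraries (adjusted p = 0.0112 each, exact). The smallest unadjusted p that 8 libraries allow in this two-sided test is 0.00781, and adjustment was over 10 tests. The classes were made from the expression of the same nuclei, so a difference in profile size between them is not independent of the class names.

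Detected genes were also compared at a common 2000 UMIs, read from the fitted lines. There OPC had 0.944 times the genes of M-OPC (log2 difference -0.083 ± 0.024, lower in 8 of 8 libraries, adjusted p = 0.0112, exact). In the same measure OPC had 0.990 times the genes of NFOL (log2 difference -0.014 ± 0.028, lower in 5 of 8 libraries, adjusted p = 0.217, exact), the 3 libraries with a higher OPC value all being VGlut2 libraries. The median of NFOL and OPC with 1800 to 2200 UMIs gave -0.034 and an adjusted p of 0.0100, so whether OPC and NFOL differed depended on how depth was matched. The same window held 1 to 13 M-OPC per library, too few for a value, so the comparison with M-OPC rests on the fitted line alone.

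Mitochondrial RNA placed OPC between the other 2 classes. Its share was higher in OPC than in M-OPC in 7 of 8 libraries, by 0.047 ± 0.033 on the log2 scale (adjusted p = 0.0195, exact), with the male Ip3r2 KO library as the exception at -0.019. It was lower in OPC than in NFOL in 8 of 8 libraries, by -0.098 ± 0.029 (adjusted p = 0.0112, exact), with NFOL at 3.31% to 3.63%. The differences from NFOL were -0.082 to -0.066 in the 4 VGlut2 libraries and -0.13 to -0.12 in the 4 Ip3r2 libraries and did not overlap, which was not tested. OPC nuclei also varied less in depth than NFOL in 8 of 8 libraries, the SD of log2 UMIs being 0.126 ± 0.0677 lower (adjusted p = 0.0112, exact), while against M-OPC that SD was lower in 5 of 8 libraries (adjusted p = 0.617, exact).

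**Figure D4:**
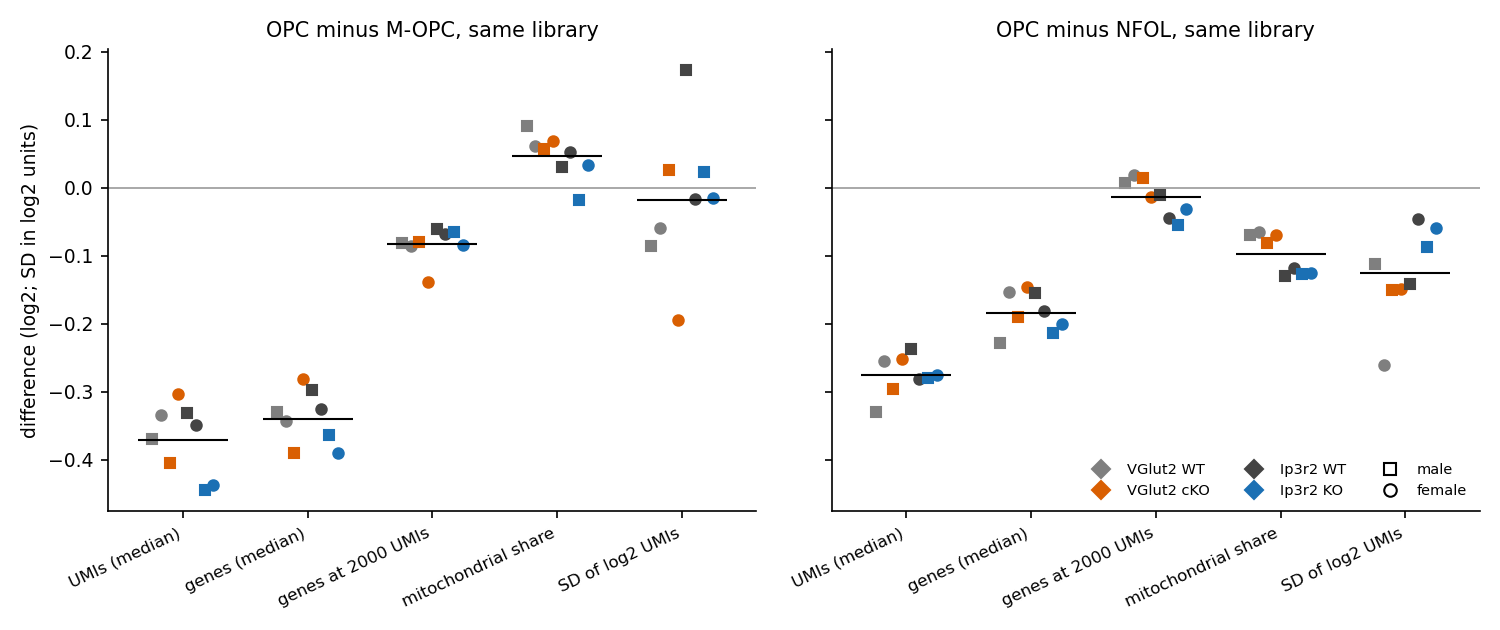
OPC minus M-OPC (left) and OPC minus NFOL (right) within each library, for log2 median UMIs, log2 median genes, log2 genes at 2000 UMIs, log2 mitochondrial share and the SD of log2 UMIs. Points are the 8 libraries, coloured by group, squares male and circles female, and lines are means. UMIs and genes lie below 0 in all 8 libraries on both sides, and the mitochondrial share lies above 0 against M-OPC in 7 of 8 and below 0 against NFOL in 8 of 8.

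Among the 15 classes that reached 20 nuclei in each library, the median UMIs of OPC averaged 2160 ± 342 (SD, n = 8 libraries) and ranked 7 from the highest, behind MOL, M-OPC, VLMC-Pia, NFOL, VLMC-Slc16a11 and astrocytes. Their mitochondrial share of 3.24% ± 0.0732 ranked 13, with M-OPC and MOL below, and genes at 2000 UMIs, 1126 ± 19.9, ranked 11. With their number and depth, OPC supplied 19.3% to 23.5% of the UMIs of a library.

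In the authors' UMAP embedding OPC formed 1 large region with NFOL and M-OPC leaving it on opposite sides. Of the 15 nearest nuclei of an OPC, 99.8% were OPC on average. Only 43 OPC had an NFOL among their 15 nearest nuclei and 4 had an M-OPC, compared with 104 and 28 in the tSNE embedding. In UMAP 1 NFOL lay apart from the others at the edge of the OPC region. How many of the 43 had only this NFOL as a neighbour was not counted. In UMAP the OPC with an NFOL neighbour were spread over the libraries, 4 to 7 in each. Neighbours from an OPC's own library were 10.7% to 16.8% of the 15, where that library held 10.7% to 14.7% of all OPC. The embedding was built by the authors from the genes that made the classes, after batch correction, and it is used as a description with no test.

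**Figure D5:**
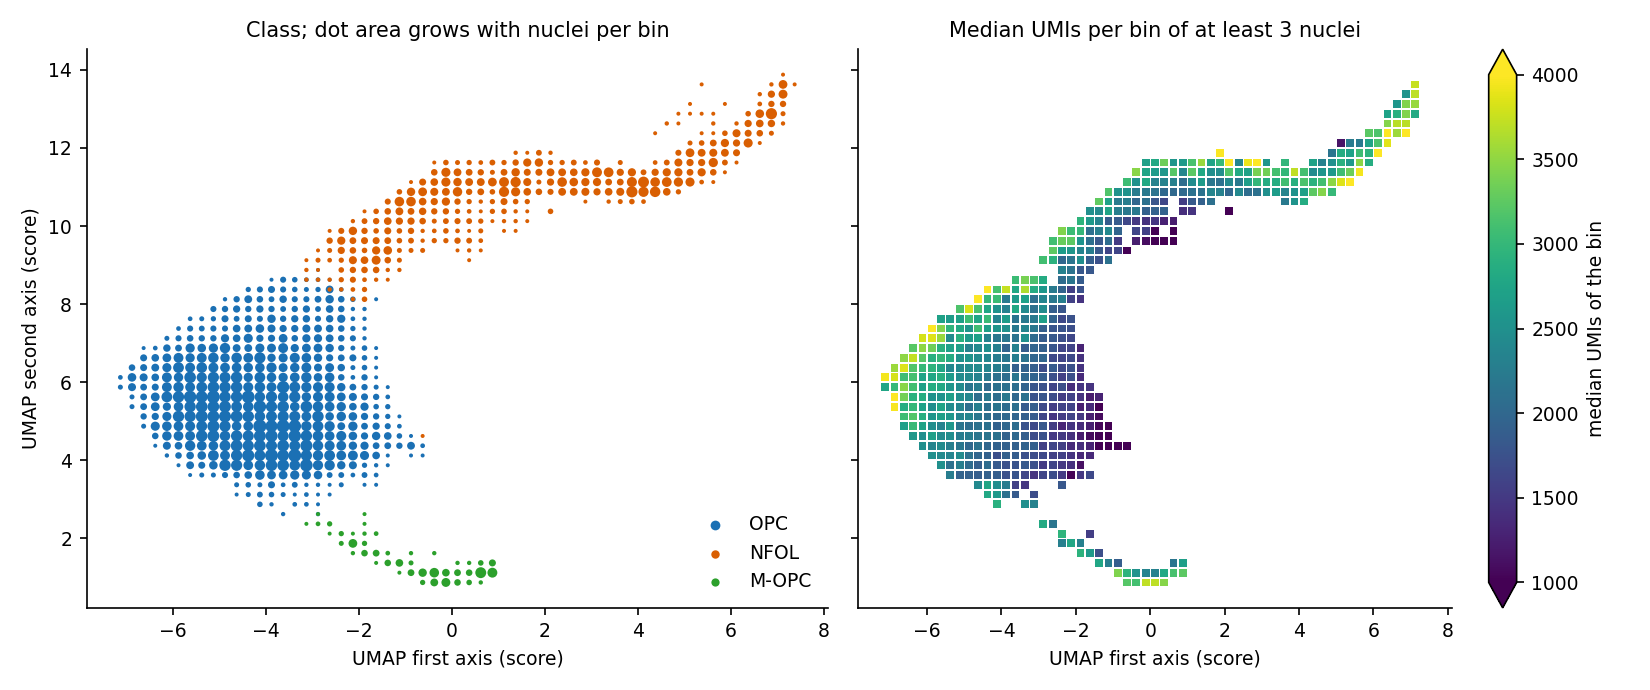
Map of OPC, NFOL and M-OPC on the 2 UMAP axes (scores without unit) in bins of 0.25, coloured by class on the left, with dot area growing with nuclei per bin, and by median UMIs of bins with at least 3 nuclei on the right. All 8363 OPC, 2765 NFOL and 353 M-OPC are included, and median UMIs run across the OPC region from high on the left edge to low on the right edge.

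The map of median UMIs shows that depth was graded across the OPC region. In each library, the 10% of OPC nearest to M-OPC were compared with the remaining OPC. Their median UMIs were 0.783 ± 0.0341 times as high (SD, n = 8 libraries). They were lower in 8 of 8 libraries, although M-OPC themselves were deeper than OPC. M-OPC lay at 0.875 to 2.625 on the second UMAP axis. In bins with at least 3 OPC, median OPC UMIs were 2326 to 2903.5 at 2.875 on this axis. At 3.625 they were 1017 to 2265.5. Which bins supplied the 10% was not counted. The ratio of 0.783 is thus no measure of OPC depth at the edge beside M-OPC. The 10% with the shortest distance to an NFOL had 0.859 ± 0.0717 times the UMIs of the remaining OPC, again lower in 8 of 8 libraries. NFOL were also deeper than OPC. Distance ran to the single nearest NFOL, and 1 NFOL of 259 UMIs lay alone at the shallow right tip of the OPC region. OPC around it, in bins with medians of 258 to 522 UMIs, could thus count as near NFOL here and in the values below. How far this moved the values was not tested. In bins with at least 3 OPC that also held NFOL, median OPC UMIs ran from 3134 on the left to 1582 on the right. The OPC median averaged 2160 over the libraries. The ratio of 0.859 is thus no measure of OPC depth at the border with the main NFOL region. The mitochondrial share of OPC near NFOL was 3.42% ± 0.0735 against 3.22% ± 0.0749 in the remaining OPC, higher in 8 of 8 libraries, and near M-OPC it was 3.32% ± 0.0927 against 3.23% ± 0.0735, also higher in 8 of 8. At 2000 UMIs, OPC near NFOL showed 1138 ± 16.6 genes and the remaining OPC 1125 ± 20.3, higher near NFOL in 8 of 8 libraries. Position, depth and mitochondrial share thus moved together within OPC, and the part of depth in the order of nuclei was not tested.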

How the data were processed

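Nuclei of P14 VC were sorted as NeuN-negative, barcoded with the 10x Chromium kit and sequenced in 8 libraries of 2 pooled mice, 1 male and 1 female library per group. Cell Ranger and the build mm10 are named in the submitters' processing notes. The authors removed barcodes with under 200 genes and, with Scrublet, doublets, corrected batches with Scanorama, clustered by Leiden in Scanpy and named the classes from markers. The deposited UMIs and genes of a nucleus are raw counts. The deposited mitochondrial value is a fraction, since its product with the UMIs was whole within 0.001 in 44021 of 44021 nuclei, and its gene list is not given in the sources used here. The deposited UMAP and tSNE coordinates are scores with no unit.

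The 20 class names were reduced to 17 by joining 4 astrocyte groups. Shares were log2 odds of (nuclei + 0.5)/(library nuclei + 1). UMIs, genes and mitochondrial shares were log2 library medians or pooled shares of the 15 classes that reached 20 nuclei in each library, and genes at 2000 UMIs those of 14 classes. All were compared with limma (version 3.58.1, R 4.3.3) over all 8 libraries with group means, and edgeR (version 4.0.16) on nuclei per class was an alternative. Benjamini-Hochberg adjustment was over classes or ratios, two-sided, with a threshold of 0.05. OPC, M-OPC and NFOL of the same library were compared by exact sign flips (Python 3.11.15). OPC were named in every comparison, M-OPC, NFOL, MFOL and MOL as lineage neighbours, and any other class only if past the threshold or, in rankings, beside OPC. Libraries of 1 group differ in mice and in sex, so their spread holds animal, sex and technical variation. Fits were tested on simulated data. The members, classes and tests were chosen with earlier results of these data known, and the fits of sex within models and between models after the values were seen.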

Additional observations from a re-analysis of the deposited data

Results flagged for a closer look

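The difference between female and male libraries in the M-OPC ratio was compared between the models in a fit chosen after the values were seen. The log2 odds of M-OPC among OPC and M-OPC, females minus males, differed between VGlut2 and Ip3r2 by -1.48 (adjusted p = 0.0471 in limma), with females below males in 2 of 2 VGlut2 genotypes and above in 2 of 2 Ip3r2 genotypes. It was 1 of 18 differences of effects that were tested for OPC measures, and adjustment was over the 9 ratios only. It passed in 0 of 8 fits with 1 library left out (adjusted p from 0.215 to 0.422), and did not pass in nuclei with at least 1000 UMIs (adjusted p = 0.0563). Sex and day of processing cannot be told apart here if the same-sex pair shared a day, and the day is not in the labels. The error of this fit does not measure the spread between days or between further same-sex pairs.

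In the female VGlut2 cKO library, OPC genes at 2000 UMIs lay farther below those of M-OPC than in the other 7 libraries, at a log2 difference of -0.138. This library held 26 M-OPC, 23 of them in the range used for the line. Of 10 sets of 8 differences examined for a library that stood apart it was the only one. Chance alone would flag about 1 in 20 sets, so 1 flag among 10 sets is not unusual.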

How the results depend on the processing

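Under 226 recomputations of the 18 OPC differences between genotypes none passed the threshold (lowest adjusted p = 0.128, limma or edgeR), and the exact comparisons with M-OPC and NFOL over 8 or 7 libraries kept their direction and side of the threshold except as given here. Within 1 model, 4 libraries are too few for this test to pass at any value, so those settings give values only. Taking same-sex pairs as a replicate block left the 18 values as they were and gave adjusted p from 0.858 to 1.0. Restricting the nuclei to at least 1000 UMIs turned the sign of the OPC share difference in VGlut2 (-0.037) and of the share difference between sexes (-0.051), both far from the threshold, and left the sex difference of the M-OPC ratio between the models at -1.56 with an adjusted p of 0.0563. Genes of nuclei with 1800 to 2200 UMIs turned the sign for Ip3r2 KO (0.0035) and brought OPC below NFOL past the threshold (-0.034). That window held too few M-OPC for a value. In the VGlut2 libraries alone genes at 2000 UMIs of OPC minus NFOL were 0.0071, and in the Ip3r2 libraries alone the SD of log2 UMIs of OPC minus M-OPC was 0.041, both opposite in sign to the value over all 8 libraries. The cause of these shifts was not tested.

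With 2 libraries per group, leaving out 1 library set the sign of most genotype differences, and the lone library was then assumed to vary like the others. Without 1 library at a time, the log2 odds of the OPC share ran from -0.23 to 0.25 in VGlut2 and -0.11 to -0.0064 in Ip3r2, the NFOL ratio from -0.25 to -0.026 and -0.069 to -0.024, the M-OPC ratio from -0.75 to 0.59 in VGlut2 and -0.45 to 0.17 in Ip3r2, and OPC within the lineage from -0.11 to 0.25 and -0.13 to 0.20. On the log2 scale, UMIs ran from -0.11 to 0.21 and -0.054 to 0.050, genes from -0.10 to 0.20 and -0.066 to 0.044, relative depth from -0.025 to 0.14 and -0.18 to 0.15, mitochondrial share from -0.039 to 0.044 and -0.042 to 0.029, and genes at 2000 UMIs from -0.022 to 0.043 and -0.025 to 0.010, VGlut2 first. Females minus males ran from -0.056 to 0.18 for the OPC share, -0.69 to -0.036 for the M-OPC ratio, -0.099 to -0.025 for the NFOL ratio, -0.19 to 0.045 for OPC within the lineage, -0.013 to 0.13 for UMIs, -0.011 to 0.13 for genes and -0.025 to 0.026 for the mitochondrial share. The sex difference of the M-OPC ratio between models ran from -1.72 to -1.23, the UMI difference between models from 0.32 to 0.48, and the SD of log2 UMIs of OPC minus M-OPC from -0.046 to 0.0065. The number of nuclei limits the M-OPC values, which rest on 25 to 65 nuclei per library.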
